A study of Homo sapiens with 2 samples.

Results

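The cytosolic ribosomal protein genes encode the proteins that, with ribosomal RNA, build the small (RPS) and large (RPL) subunits of the ribosome that translates messenger RNA in the cytoplasm. They are among the most strongly and steadily transcribed genes of growing cells. Their promoters typically start transcription at a run of pyrimidines, a feature that lets the cell regulate the translation of these messages together, and many of the genes carry small nucleolar RNAs (snoRNAs) in their introns. RUNX1 is a DNA-binding transcription factor that works as a pair with CBFB, and the letters TGTGGT or TGCGGT are the core of the sequence that it recognises.

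Members were taken by symbol from the RefSeq gene table of build GRCh38.p14. They are the protein-coding genes on chromosomes 1 to 22 named RPL or RPS with a number and optional letters or an L suffix, together with RPLP0, RPLP1, RPLP2 and RPSA, and without the RPS6K kinases. This gave 81 genes among 19122 protein-coding genes of these chromosomes, 31 of the small and 50 of the large subunit. Of these, 8 have the symbol of a duplicated relative, such as RPL3L, RPL22L1 and RPS27L. FAU, which encodes a ribosomal protein fused to another protein, and 4 genes on chromosome X (RPL10, RPL36A, RPL39, RPS4X) do not come under this rule.

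RUNX1 binding was measured by ChIPseq, in which DNA bound by a protein is pulled down with an antibody and sequenced. The cells were derived from MCF10A, a line from human breast epithelium that does not form tumours when unmodified. In them RUNX1 had been deleted and a lentiviral RUNX1 gene could be switched on by doxycycline (24 hours at 1 µg/ml). The study reports that MCF10A cells without RUNX1 formed tumours in mice. The libraries were 1 with an antibody to RUNX1 (80338845 tags kept) and 1 of input DNA from cells of the same kind (87410774 tags kept). In the study, knockout lines were grown from single colonies, and RUNX1 came from the added gene and not at its natural level, so the list describes that engineered line. The 13591 listed peaks have no replicate, and no value here has a test between samples. The intervals of pileups cover counting error of tags in these libraries only. Those of shares and of summits per Mb treat genes or summits as independent draws. They do not cover differences between libraries.

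Of the 81 ribosomal protein genes, 5 had a RUNX1 summit (the highest point of a peak) inside them or within 1 kb, among them RPS9 and RPS3A of the small subunit and RPL30 and RPL36 of the large subunit. That is 6.17% of the members (exact 95% binomial interval 2.03 to 13.8%), against 21.6% of all protein-coding genes. The other 76 had none. Ribosomal protein genes are short, with a median length of 5.02 kb against 24.5 kb for all protein-coding genes, and 70 of the 81 were in the 3 shortest of 10 equal groups by length (deciles). When each member was given the share of all protein-coding genes of its own decile that had a summit, the sum was 6.57 genes or 8.11%, which is within the interval of the members' share. In deciles 1 to 3, the share of all protein-coding genes with a summit was 4.86, 7.90 and 8.63%, and 1 of 17, 3 of 35 and 1 of 18 members had one.

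**Figure D1:**
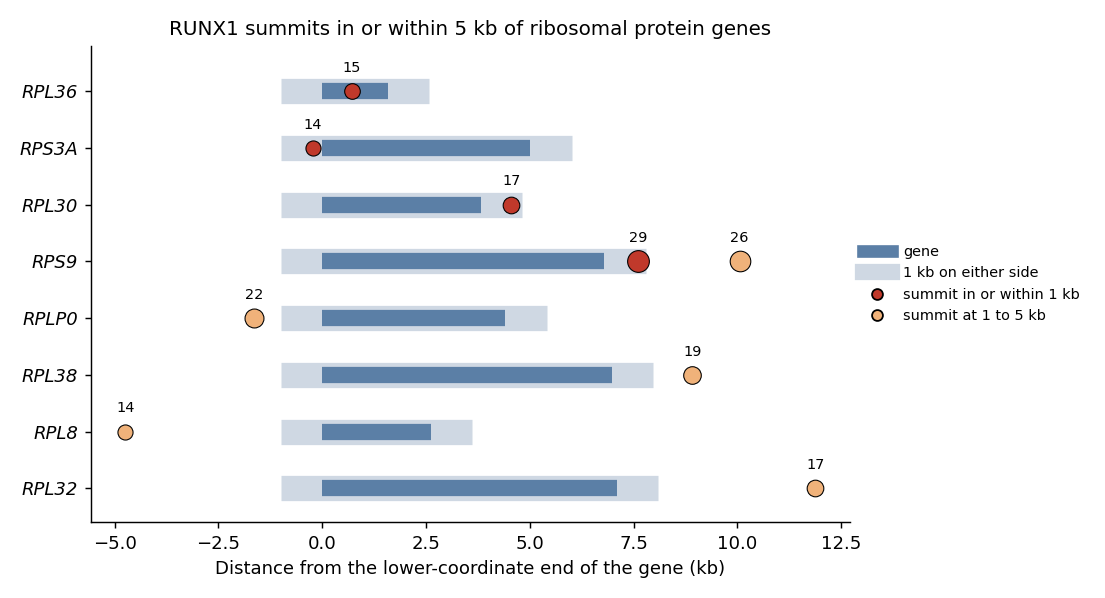
Summits in or within 5 kb of ribosomal protein genes, drawn to scale for 8 genes that had one. The horizontal axis is the distance in kb from the lower-coordinate end of the gene, dark bars are genes, pale bars reach 1 kb past each end, and each circle is a summit labelled with its pileup in tags (its area grows with the pileup). Of the 9 summits drawn, 1 lies inside a gene (RPL36), 3 lie within 1 kb outside it and 5 lie 1 to 5 kb away.

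At RPS3A the summit fell inside the stretch of promoter sequence that could be read. RPS3A encodes a small subunit protein. Promoter sequence was at hand for 64 members and not for the other 17. Its 250 bases before the start site (chr4:151099378-151099627, plus strand, GRCh38.p14, from RefSeq) are shown because, of those 64, only RPS3A had a promoter window that overlapped a peak. The 119 bases inside the peak are in capitals:

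RPS3A upstream: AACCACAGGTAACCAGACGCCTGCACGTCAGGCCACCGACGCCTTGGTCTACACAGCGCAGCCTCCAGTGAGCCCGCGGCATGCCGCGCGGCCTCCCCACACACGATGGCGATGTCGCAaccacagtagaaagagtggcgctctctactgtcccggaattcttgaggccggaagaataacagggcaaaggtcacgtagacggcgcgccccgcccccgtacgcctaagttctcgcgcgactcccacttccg

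The peak spanned 151099365 to 151099496 on chromosome 4 with its summit at 151099398, which is base 21 of the printed run and 230 bases before the start site. The letters ACCACA, which read TGTGGT on the other strand, occurred at 2 places in this run. The first covers positions -249 to -244 relative to the start site, in the capitals. The second covers positions -131 to -126 and began directly after the last base of the peak. A match is a description of the letters, not a bound site. The peak was one of the lower ones in the list, with a pileup of 14 tags (exact 95% Poisson interval 7.65 to 23.5), a fold enrichment over the local background of 3.99 and a −log10 q of 3.22. A higher −log10 q was seen in 83.4% of all peaks.

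RPS9 encodes a small subunit protein and is on the plus strand. Its nearest summit, at 54208473 on chromosome 19, lay 826 bases past the downstream end of the gene and 7615 bases from the start site. That peak had the highest pileup within 5 kb of any member, 29 tags (19.4 to 41.6), with a fold enrichment of 7.92 and a −log10 q of 15.7. A second peak followed at 3.27 kb past the end, with 26 tags (17.0 to 38.1) and a fold enrichment of 8.32. RPS9 was the only member with 2 summits within 5 kb, and no other protein-coding gene lay within 5 kb of either of them. The nearest, LILRB3, was 7.80 kb from the first and 5.37 kb from the second.

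RPL36, a large subunit gene of 1581 bases on chromosome 19, held a summit at 5691004, 709 bases after its start site. The pileup was 15 tags (8.4 to 24.7), the fold enrichment just under 5.00 and the −log10 q 5.09. The same summit lay 830 bases from LONP1, a mitochondrial protease gene, so it fell within 1 kb of both genes.

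RPL30 encodes a large subunit protein. Its summit, at 98046277 on chromosome 8, lay 732 bases outside the gene. The peak had 17 tags (9.90 to 27.2), a fold enrichment of only 2.76 and a −log10 q of 1.54, which was exceeded by 98.3% of all peaks. The local background was 2.50 times the genome-wide background of 2.20 tags, the highest among the 11 peaks within 5 kb of members, where the others were between 1 and 1.27 times. Whether the raised background had a part in this call was not tested. At a stricter q of 0.01 RPL30 dropped out and 4 members remained.

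At the edge of the 1 kb limit, RPS9 was just inside at 826 bases, and RPLP0, at 1.64 kb, was outside. With 5 kb on either side, 10 members (12.3%, 6.08 to 21.5%) had a summit against 25.5% of all protein-coding genes, and the length deciles gave 10.9 genes. The 5 added were all of the large subunit and included RPLP0 (22 tags, 7.18), RPL38 (19 tags, 5.32), RPL8 (14 tags, 4.23) and RPL32 (17 tags, 5.62). RPLP0 encodes the base of the ribosomal stalk, which recruits elongation factors. The peak by RPLP0 was nearer to another gene, 343 bases from GCN1, a gene for a protein that senses stalled ribosomes. For 2 more of these the summit was closer to another protein-coding gene: that of RPL38 lay 978 bases from TTYH2, and that of RPL8 lay inside ZNF34.

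**Figure D2:**
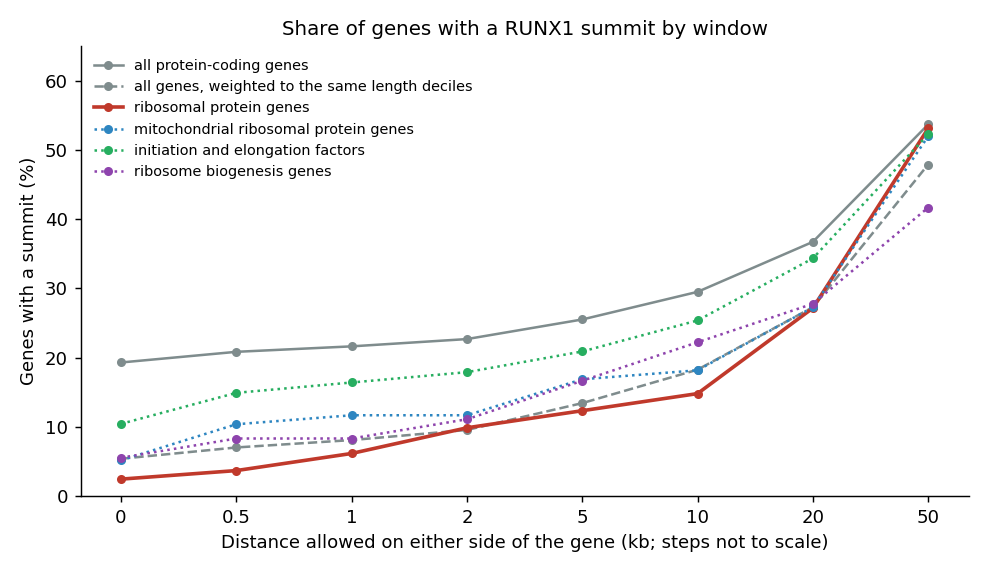
Percent of genes with a summit in the gene or within the distance on the horizontal axis (kb, steps not to scale), for the 81 ribosomal protein genes, all 19122 protein-coding genes, the same genes weighted to the members' length deciles, and 3 lists of related genes. At 1 kb the ribosomal protein genes stand at 6.17% and all protein-coding genes at 21.6%; the line weighted by length stands at 8.11%, and at 50 kb ribosomal protein genes and all genes are at 53.1 and 53.7%.

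Few of these summits were inside the genes. With gene bodies alone, 2 members (2.47%, 0.300 to 8.64%) had a summit against 19.3% of all protein-coding genes, and the length deciles gave 4.38 genes. Counted per length, the bodies of members held 3.70 summits per Mb (exact Poisson interval 0.448 to 13.4), and those of all protein-coding genes held 5.26. In the 1 kb on either side the density was 18.5 per Mb (3.82 to 54.1) at members, from 3 summits, and 16.7 at all genes. From 20 to 50 kb away it was 9.26 per Mb (6.75 to 12.4) around members and 7.50 around all genes. In each of these zones the value over all genes lay inside the interval of the members.

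Each of the 5 summits within 1 kb of a member was also within 1 kb of one of its ends. For the 3 outside a gene this holds by definition, and in RPL36, of 1581 bases, every position is within 1 kb of an end. Counting gene ends gave 6.17% of the members against 5.41% of all protein-coding genes, a measure that depends less on gene length, and 4.02 genes from the length deciles. Start sites and strands were known for 64 members. Of these, 2 (RPS3A and RPL36) had a summit within 1 kb of a start site, or 3.13% (0.381 to 10.8%), against 5.03% of 15100 protein-coding genes. RPL30 was among the 17 members without a start site here. No summit was listed near the start site of the other 62. At this depth that means that no position there passed the q-value limit against its local background. The lowest pileup in the list was 10 tags, but the limit is not a fixed pileup. The number of tags at these start sites is not known from the list.

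**Figure D3:**
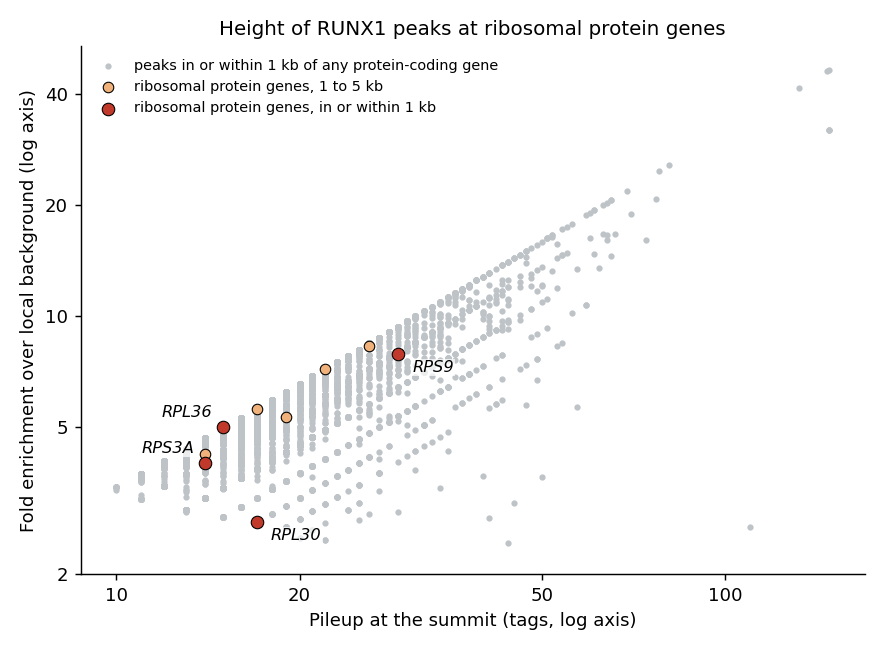
Pileup at the summit (tags) against fold enrichment over the local background, both on log axes, for 9 peaks in or within 5 kb of ribosomal protein genes (coloured) and the 6807 peaks in or within 1 kb of any protein-coding gene (grey). RPS9, at 29 tags, stands above the other 3 named genes, at 14 to 17 tags, and RPL30 has the lowest fold enrichment, 2.76.

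Peaks at ribosomal protein genes were close in height to peaks at genes in general. The 5 within 1 kb had a median pileup of 17 tags (range 14 to 29) and a median fold enrichment of 5.00, and the 6807 peaks in or within 1 kb of any protein-coding gene had medians of 18 tags (range 10 to 148) and 5.06. RPS9 was above the upper quartile of 22 tags of those peaks, and RPL36 and RPS3A were at or below the lower quartile of 15 tags. The Poisson intervals of RPS9 (19.4 to 41.6) and RPS3A (7.65 to 23.5) overlapped.

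The distance from a member to its nearest summit had a median of 47.7 kb, with quartiles of 19.2 and 130 kb. Over all protein-coding genes the median was 42.1 kb, and the medians of the members' length deciles, averaged over members, came to 54.2 kb. Of the 81 genes, 33 had their nearest summit 5 to 50 kb away, 29 had it 50 to 200 kb away and 9 (11.1%) farther. Over all 19122 protein-coding genes these counts were 5382, 5986 and 2875 (15.0%). Over the 11474 genes of length deciles 1 to 6 they were 3811, 4076 and 1812 (15.8%). RPS7 (1579 kb), RPL10L (1416 kb) and RPL24 (406 kb) were the farthest members. Small subunit genes had a median distance of 65.4 kb and large subunit genes of 47.2 kb. Within 1 kb, 3 of 31 small subunit genes (9.68%, 2.04 to 25.8%) and 2 of 50 large subunit genes (4%, 0.488 to 13.7%) had a summit, with intervals that overlap. With 50 kb on either side, 43 members (53.1%, 41.7 to 64.3%) had one against 53.7% of all protein-coding genes.

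**Figure D4:**
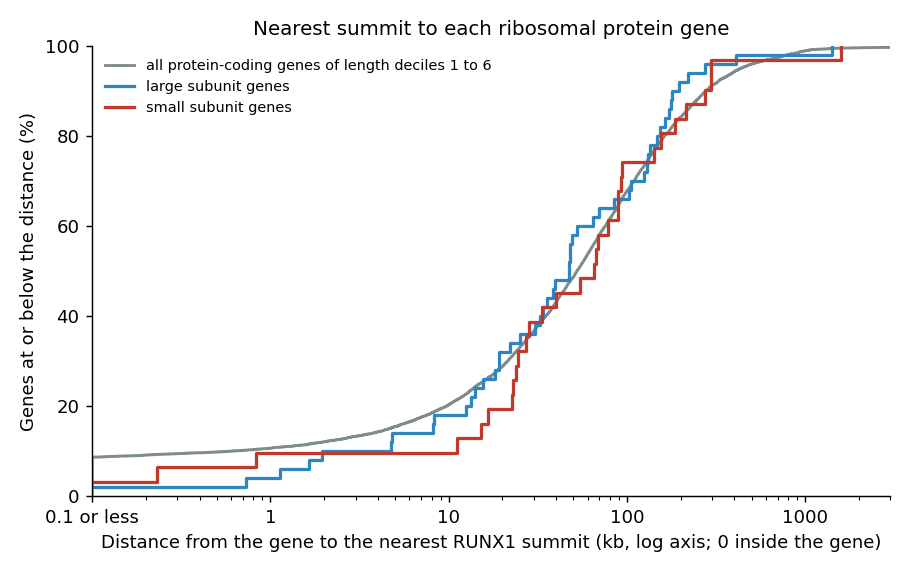
Percent of genes whose nearest summit lies at or below the distance on the horizontal axis (kb, log axis, with 0 for a summit inside the gene), for 31 small subunit genes, 50 large subunit genes and all 11474 protein-coding genes of length deciles 1 to 6. The lines of the members run below that of all these genes at short distances and close to it beyond, with medians of 65.4, 47.2 and 52.3 kb. The line of all genes includes the members and is not weighted by length. Its genes have a median length of 11.1 kb, against 5.02 kb for the members.

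The letters of the RUNX core, in either form, occurred in the promoter windows of 19 of 64 members and of 3564 of 15100 protein-coding genes. Counted by start site, either form was in 26.9% of windows of members and 18.9% of those of protein-coding genes. The table held 78 start sites of the 64 members, each with 250 bases before and 50 after. TGTGGT on either strand occurred in 20.5% of them, against 11.2% of 21155 promoters of protein-coding genes and 13.1% of all promoters in the table, and TGCGGT in 8.97% against 8.57% and 7.29%. The ETS letters CCGGAAG occurred in 33.3% against 12.9% and 10.3%, and the YY1 letters AAGATGG in 11.5% against 5.96% and 5.84%, each on either strand. ETS and YY1 proteins are known to act at ribosomal protein promoters. The median GC content was 59.7% for members and 62.7% for protein-coding genes, and start sites of 1 gene overlap in sequence, so these shares are not of independent promoters.

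Of the 19 members with the letters, 2 (RPS3A and RPS9) had a summit in or within 1 kb of the gene (10.5%, 1.30 to 33.1%), although that of RPS9 was at its far end. Among all protein-coding genes in the table with the letters the share was 27.2%, and the length deciles gave 1.47 genes for the 19. Of the 45 members without the letters, 1 (RPL36) had one (2.22%, 0.0562 to 11.8%), against 20.4% of such protein-coding genes, and the deciles gave 3.70. These intervals of members with and without the letters overlapped. The median distance to the nearest summit was 33.4 kb for members with the letters and 64.7 kb without, and over protein-coding genes it was 33.4 and 43.8 kb. In 7 members TGTGGT, on either strand, lay 100 to 150 bases before a start site, a window chosen after values were seen. How many promoters of all protein-coding genes hold the letters in that window was not counted, so the 7 have no background. The 7 are shown because they hold the same 6 letters in that window, while only RPS3A had a summit within 1 kb. Each is read from RefSeq (GRCh38.p14) along the strand of its gene, with 12 bases on either side and the letters in capitals:

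RPL18 (chr19:48619265-48619294, minus strand, nearest summit 8.20 kb from the gene): gtcgtccaactcACCACAgagaagtccgga

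RPS26 (chr12:56041789-56041818, plus strand, 294 kb): acgagtgcgcctTGTGGTccagcgtctggc

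RPL15 (chr3:23916411-23916440, plus strand, 175 kb): cttctgaaaaacTGTGGTtctcatgttagc

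RPL38 (chr17:74203539-74203568, plus strand, 1.94 kb): ctgttgacttcgACCACAagggggcagggc

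RPS18 (chr6:33271934-33271963, plus strand, 22.9 kb): cgcaccggaagtTGTGGTacccaagccata

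RPS3A (chr4:151099485-151099514, plus strand, 0.230 kb): ggcgatgtcgcaACCACAgtagaaagagtg

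RPL6 (chr12:112411557-112411586, minus strand, 129 kb): tcattcattcatTGTGGTacattttctgca

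In RPS18 the letters began at position -129, with 1 base between them and an ETS match that ended at -131. RPL15 and RPS26 are among the farther members from any summit, at 175 and 294 kb, with the same letters upstream of their start sites.

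The snoRNA genes held inside ribosomal protein genes guide chemical changes of ribosomal RNA and are made from the introns of their hosts. There were 58 in 27 members. Of the 58, 0 held a summit (0 to 6.16%), against 0.348% of all 1150 snoRNA genes of chromosomes 1 to 22, and 2 were within 1 kb of one (3.45%, 0.420 to 11.9%), against 1.48%. Of the 27 hosts 3, among them RPS3A and RPL30, had a summit in or within 1 kb (11.1%, 2.35 to 29.2%), where the length deciles of protein-coding genes gave 2.23. Of the other 54 members 2 did (3.70%, 0.452 to 12.7%), where the deciles gave 4.33, and these intervals overlapped.

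Ribosomal protein genes have left many processed copies in the genome, and reads from a gene and a near-identical copy may be hard to tell apart. The table held 1913 such pseudogenes on chromosomes 1 to 22. Of these, 27 had a summit inside or no more than 1 kb away, or 1.41% (0.932 to 2.05%), against 1.96% of all pseudogenes, and the length deciles of all pseudogenes gave 21.9. A summit lay inside 6, or 0.314% (0.115 to 0.681%), against 1.13% of all pseudogenes, a value above the interval. Their median length was 538 bases against 695 for all pseudogenes, and the length deciles gave 7.13 with a summit inside, or 0.373%, which the interval holds. The tallest was by RPS5P6, 327 bases outside it on chromosome 9, with 25 tags (16.2 to 36.9). RPS3A has 54 named pseudogenes, RPL36 19, RPL30 15 and RPS9 4, against a median of 13 over the members. How reads that fit several places were handled is not given in the sources used here, and its part in these counts was not tested.

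Among related gene lists, 9 of 77 mitochondrial ribosomal protein genes (11.7%, 5.49 to 21.0%), 11 of 67 initiation and elongation factor genes (16.4%, 8.49 to 27.5%) and 3 of 36 ribosome biogenesis genes (8.33%, 1.75 to 22.5%) had a summit in or within 1 kb. The length deciles gave 9.43, 11.6 and 5.18 genes for them. All of these intervals overlapped that of the ribosomal protein genes. The tallest peaks of these lists were at EEF1A1, the main elongation factor that brings transfer RNA to the ribosome (61 tags, 46.7 to 78.4), EIF5A2 and NOP14 (29 tags each), MRPS27 (27 tags), MRPS24 (25 tags) and POLR1A, the large subunit of RNA polymerase I (24 tags). The interval of EEF1A1 lay above that of each of the 5 peaks at ribosomal protein genes, the highest of which, RPS9, ended at 41.6 tags. EEF1A1 was picked as the tallest of its list of 67 genes, so this does not compare the lists. FAU, outside the symbol rule, had no summit within 50 kb, its nearest being 113 kb away.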

How the data were processed

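RUNX1 ChIPseq and input DNA from MCF10A cells were analysed, 1 library each, grouped by the antibody in their labels. Per the file headers, the authors called peaks with MACS 2.1.2 at a q-value limit of 0.05, with 54 b tags extended to 74 b, at most 1 tag per position and strand, an effective genome of 2.7 Gb and local backgrounds over 1 and 10 kb. Bowtie2 and build hg38 are named in the submitters' processing notes. The deposited pileup is a signal that counts the extended tags of the ChIP library at a summit. Fold enrichment was deposited as a ratio, pileup plus 1 over local background plus 1. The deposited q-values are on a −log10 scale. These are the authors' values and were used as they stand. The local background was computed from pileup and fold enrichment, and the genome-wide one from kept tags.

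Summits were assigned to RefSeq gene intervals (GRCh38.p14) with Python 3.11.15, numpy 2.4.6, pandas 2.3.3 and scipy 1.17.1. The assignment was tested on simulated data. Length was handled by giving each member the share of all protein-coding genes of its length decile. Shares have exact binomial and pileups exact Poisson intervals at 95%. No test was made between samples or lists. Genes named by rule are members with a summit within 5 kb, the 3 farthest, FAU, the 2 genes with the highest pileup per related list, and members with RUNX letters 100 to 150 bases upstream. The last of these, the start-site measure, the disease-gene groups, the peaks 5 to 50 kb from members and the genes named with them in the closing section were chosen after values were seen. Some items that come under this rule are not reported here, though counts over all members include them. Members and lists were chosen with earlier results of these data known. Start sites and promoter sequences came from a RefSeq table that held 64 members. Alternatives were a stricter q-value (0.01), fold enrichment of 5 or more, other windows, overlap of any base, merged peaks and length vigintiles.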

Additional observations from a re-analysis of the deposited data

How the results depend on the processing

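Of 27 alternatives over 6 results, 12 stayed within 1.5 times the reported value or, for the median pileup, within its counting interval; 5 of the 27 were added after seeing the data. The number of members with a summit in or within 1 kb was 5. It was 2 with a fold enrichment of at least 5, against 3.43 genes from the length deciles, 2 with gene bodies alone, 10 with 5 kb and 43 with 50 kb on either side. The length-decile count of 6.57 became 10.9 with 5 kb and 38.8 with 50 kb. Members with a summit within 1 kb of either end, 5 as reported, were 2 at a fold enrichment of at least 5, 2 within 500 b, 8 within 2 kb and 2 from the start sites of the promoter table, which held 64 of the 81 genes. The number of summits was 2 at a fold enrichment of at least 5, 11 with 5 kb and 3 without chromosomes 1, 5 and 8. At a fold enrichment of at least 5 the median pileup rose to 28.5 tags and the median distance from 47.7 to 99.7 kb, by construction since weaker peaks are dropped. Wider windows add summits by construction. Counting a peak by any base added 1 gene. No paired analysis was possible because each kind of library was made once. With 14 to 29 tags per peak and 5 genes, differences between members of less than their counting intervals were not detectable at this depth.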

Other observations

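Mutations that remove 1 copy of certain ribosomal protein genes cause Diamond-Blackfan anaemia, a failure of red cell production, and RUNX1 is itself a regulator of blood formation. Of 18 members known from that disease, a group chosen after values were seen, 0 had a summit within 5 kb (exact 95% binomial interval 0 to 18.5%). That interval holds the 12.3% of all 81 members and the 13.4% given by the length deciles of the 81. It does not hold the 25.5% of all protein-coding genes, whose median length is 24.5 kb against 5.67 kb for the 18. No length-decile share was computed for the 18 alone. Within 50 kb 8 had one (44.4%, 21.5 to 69.2%), against 53.1% of all members and 53.7% of protein-coding genes, and the median distance to the nearest summit was 75.5 kb against 47.7 kb over all 81 members. RPS19, the gene most often mutated, was 15.1 kb from a summit. RPS14, the ribosomal protein gene of the region of chromosome 5 lost in a form of myelodysplastic syndrome, was 24.5 kb from one. RPL5 and RPL11, whose proteins bind MDM2 when ribosome assembly fails, were 47.7 and 102.7 kb from one. The 4 genes on chromosome X were 171 to 633 kb from a summit.

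Peaks from 5 to 50 kb of members, picked for their height after values were seen, included taller ones than the 11 within 5 kb, but there were more of them. The median pileup was 19 tags over the 11 peaks within 5 kb and 17 tags over all 75 peaks within 50 kb. The tallest lay 39.7 kb from RPS25, inside FOXR1, with 61 tags (46.7 to 78.4) and a fold enrichment of 19.4. The next had 44 tags (32.0 to 59.1), 49.1 kb from RPL26L1 and inside ERGIC1, a protein of the early secretory pathway. The peak 17.8 kb from RPL19 lay inside STAC2 and had 31 tags (21.1 to 44.0).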
